A study of Mus musculus with 8 samples.

Results

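Variably methylated intracisternal A particles (VM-IAPs) are copies of an endogenous retrovirus whose methylation differs between genetically identical mice. The ends of these elements were examined here by the class of their long terminal repeat (LTR) and by their structure. An end was the mean over the 8 outermost CpGs inside the element that were listed in all 4 libraries, and at least 4 such CpGs were needed. Of 105 VM-IAPs on the study's list, 99 lay on chromosomes 1 to 19, and 194 of their 198 ends could be measured. The other 4 ends belonged to IAP_Mbnl1 and IAP_Mrgpra3, at which 0 CpGs were listed in all 4 libraries. The table fitted over the whole series held 2273876 rows, namely the 194 ends, 4980 ends of other copies of the same LTRs and 2268702 runs of 8 CpGs.

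The study profiled resting CD43- B cells and naive CD4+ T cells with oxidative bisulfite sequencing of the whole genome (WGoxBS), in which 5-methylcytosine alone is read as methylated. The cells came from the spleen of C57BL/6J mice of both sexes, aged 6 to 8 weeks, and no group carried a transgene or received a treatment. The labels gave 8 samples in 4 groups of 2, B and T cells of each sex, with 1 file per group that is named by both of its samples. The number in the name of each file matches that of 1 of its 2 samples. Whether such a file holds 1 sample or both joined is not stated, so each was taken as 1 library of cells pooled from several mice, and no value has a spread between replicates. Where 4 levels follow each other below, they stand for B and T cells of females and then for B and T cells of males. Each library listed 19595981 to 20197082 CpGs, with a median of 14 to 17 reads per autosomal CpG. The promoters of Cd3d, Cd3e and Cd4, which mark T cells, were methylated at 1.43% to 9.37% in T cells and 68.5% to 94.6% in B cells, and those of Ms4a1 and Cd79a, which mark B cells, at 9.74% to 16.8% in B cells and 69.7% to 96.0% in T cells.

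An intact IAP carries an LTR at each end of an internal region with the retroviral genes. The LTR at the 5′ end holds the promoter, and both LTRs are made from the same RNA during reverse transcription, so that they are alike when the element inserts. Recombination between both LTRs leaves a solo LTR. In most tissues DNA methylation covers IAPs and keeps their promoters silent, and a few insertions, such as the one at agouti viable yellow, escape this to a different degree in each mouse.

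The 99 elements fell into 6 groups. The largest were 26 solo LTRs of the class IAPLTR2_Mm (median length 473 bases), 22 LTR-internal-LTR elements of IAPLTR1_Mm (median 5271 bases) and 14 LTR-internal-LTR elements of IAPEY4_LTR (median 8318 bases). The remaining solo LTRs, 16 of other classes than IAPLTR2_Mm (4 of them IAPLTR1_Mm), were called other solo. The 9 remaining LTR-internal-LTR elements (3 of them IAPLTR2_Mm) were called other LTR-internal-LTR, and 12 elements had an LTR at 1 end or none. By the annotation 13 elements overlapped an exon, 24 lay within an intron and the other 62 lay between genes. The LTRs of an element were identical in the reference at 20 of 22 IAPLTR1_Mm and 10 of 14 IAPEY4_LTR elements, so a read inside such an LTR fits both ends of its element.

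The share of CpGs that were listed differed between the groups, and its relation to LTR identity was not tested. Within 350 bases of the end, 88.9% (5′) and 89.7% (3′) of reference CpGs were listed at IAPLTR2_Mm solo LTRs, whereas 42.3% and 25.8% were listed at IAPLTR1_Mm and 64.6% and 46.5% at IAPEY4_LTR elements. The 8 CpGs of a 3′ end of IAPLTR1_Mm therefore reached a median of 1902 bases into the element, beyond its LTR (median 354 bases). Of all measured ends, 75 (38.7%) reached past 350 bases, and values within 350 bases are also given for several of the ends named below. Ends of 17 elements shared CpGs, and 3 elements (IAP_9030624G23Rik locus 1, IAP_Gm6838 and IAP_AK083498) had the same CpGs at both ends. Reads were summed over the CpGs of an end, so a read over several CpGs was counted at each. The library with the fewest held 29 to 166 such counts per end (median 81). The widest 95% Wilson interval of an end's share of methylated counts had a median width of 17.3 points. Such intervals cover counting error only, and they are too narrow where a read covers several CpGs.

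The sequences on which the results turned are shown first, read on the strand of the element from GRCm38, in lower case with the CpGs listed in all 4 libraries in capitals. The 3 outermost stretches of IAPLTR2_Mm solo LTRs show nearly the same letters at low, intermediate and high methylation. They lie at IAP_Creb3l2 (chr6:37464146-37464285, plus strand), IAP_Sema6d (chr2:123754853-123754992, minus strand) and IAP_Cdh19 (chr1:110612995-110613134, plus strand), all intergenic.
IAP_Creb3l2 5′ end: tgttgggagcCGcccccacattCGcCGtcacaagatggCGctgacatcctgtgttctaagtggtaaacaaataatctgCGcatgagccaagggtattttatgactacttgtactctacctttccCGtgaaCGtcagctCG
IAP_Sema6d 5′ end: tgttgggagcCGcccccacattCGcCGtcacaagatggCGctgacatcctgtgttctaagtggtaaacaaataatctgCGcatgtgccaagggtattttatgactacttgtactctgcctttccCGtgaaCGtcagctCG
IAP_Cdh19 5′ end: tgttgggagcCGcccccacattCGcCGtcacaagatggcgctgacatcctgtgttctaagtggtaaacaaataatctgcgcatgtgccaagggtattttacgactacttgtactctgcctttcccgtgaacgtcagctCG
The LTR of IAP_Creb3l2 was 91.2% identical to that of IAP_Sema6d over 475 aligned bases and 87.2% identical to that of IAP_Cdh19 over 477.

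A pair of IAPLTR1_Mm elements is shown because their ends were low on opposite sides. IAP_Kcnh6 lies in an intron of Kcnh6, a potassium channel gene (5′ end chr11:106033421-106033560, minus strand; 3′ end chr11:106028246-106028365, minus strand). IAP_Sfpq is intergenic (5′ end chr4:127008520-127008659, plus strand; 3′ end chr4:127015572-127015691, plus strand). Within each element both LTRs are identical in the reference, so the stretches below are the outer edges of 1 LTR sequence, and between the elements the 5′ LTRs were 93.8% identical over 368 aligned bases.
IAP_Kcnh6 5′ end: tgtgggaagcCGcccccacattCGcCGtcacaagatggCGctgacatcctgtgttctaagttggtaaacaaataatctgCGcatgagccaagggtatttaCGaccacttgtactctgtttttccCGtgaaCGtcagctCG
IAP_Kcnh6 3′ end: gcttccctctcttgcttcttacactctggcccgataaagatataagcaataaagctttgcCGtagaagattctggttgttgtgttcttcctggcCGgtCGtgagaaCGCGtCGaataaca
IAP_Sfpq 5′ end: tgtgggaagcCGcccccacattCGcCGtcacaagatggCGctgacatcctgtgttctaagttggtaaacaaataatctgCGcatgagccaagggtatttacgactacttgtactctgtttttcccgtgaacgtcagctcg
IAP_Sfpq 3′ end: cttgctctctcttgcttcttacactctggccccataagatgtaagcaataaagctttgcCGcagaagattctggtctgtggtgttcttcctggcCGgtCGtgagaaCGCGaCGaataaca

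The IAPEY4_LTR class is shown by IAP_Hunk (5′ end chr16:90349773-90349872, minus strand; 3′ end chr16:90341544-90341643, minus strand), which overlaps exons of Gm49708 and Gm49709, and by the 5′ end of IAP_9030624G23Rik locus 2 (chr12:23605910-23606009, minus strand), which is intergenic. Their 5′ LTRs differed at 1 of 326 bases.
IAP_Hunk 5′ end: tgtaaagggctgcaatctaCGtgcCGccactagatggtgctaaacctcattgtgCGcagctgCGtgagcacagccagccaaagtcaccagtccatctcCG
IAP_Hunk 3′ end: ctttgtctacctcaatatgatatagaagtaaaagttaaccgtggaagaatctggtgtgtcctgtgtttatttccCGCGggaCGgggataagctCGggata
IAP_9030624G23Rik locus 2 5′ end: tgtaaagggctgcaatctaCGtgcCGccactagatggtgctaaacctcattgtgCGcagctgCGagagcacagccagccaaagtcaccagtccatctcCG
The last sequence is the 5′ end of IAP_Vmn2r97 (chr17:18968982-18969281, minus strand), an intergenic IAPLTR4 element with the largest difference between B and T cells.
IAP_Vmn2r97 5′ end: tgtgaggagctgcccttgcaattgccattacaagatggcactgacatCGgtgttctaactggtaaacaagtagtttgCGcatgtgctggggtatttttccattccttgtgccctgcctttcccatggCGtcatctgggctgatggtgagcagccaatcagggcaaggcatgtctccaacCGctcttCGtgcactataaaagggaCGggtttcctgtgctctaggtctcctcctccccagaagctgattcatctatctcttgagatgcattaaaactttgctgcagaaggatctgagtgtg

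VM-IAP ends were less methylated than all other copies of the same LTRs pooled, with the class IAPEY4_LTR as an exception, and the groups differed in level. Over the 194 ends the median of the mean level over 4 libraries was 74.3% (quartiles 52.7% and 89.0%), against 95.6% over 4980 ends of other copies. The median was 61.8% at IAPLTR2_Mm solo LTRs (33.7% and 82.7%, 52 ends), 84.9% at IAPLTR1_Mm (74.0% and 93.4%, 42 ends) and 63.5% at IAPEY4_LTR elements (43.4% and 86.9%, 28 ends). It was 70.3% at other solo LTRs, 64.1% at other LTR-internal-LTR elements and 87.7% at elements with an LTR at 1 end or none. Ends of one element share their source, and levels were compared between groups without a test. The study chose the list on data that include these samples, so the distance from other copies is not independent evidence.

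Intermediate levels, between 20% and 80%, were found at 32 of 52 IAPLTR2_Mm solo ends, 15 of 42 IAPLTR1_Mm ends and 14 of 28 IAPEY4_LTR ends. Such levels were found at 0 of 118 ends of other IAPLTR2_Mm solo copies, the lowest of which was at 89.5%, and at 4 of 1836 ends of other IAPLTR1_Mm copies. The class IAPEY4_LTR stood apart, since its other copies were not highly methylated. Over 3 other LTR-internal-LTR copies the median was 3.73% at 5′ ends and 71.6% at 3′ ends (52.2% over both). At other IAPEY4_LTR solo copies it was 44.8% over 64 ends, and 40 of the 64 (62.5%) were between 20% and 80%. The 63.5% of the listed elements is not a like comparison. All 64 ends of solo copies lay within 350 bases, but 13 of the 28 listed ends did. Within 350 bases the median of the listed elements was 53.01% over 22 ends. By side it was 26.7% at 5′ and 73.3% at 3′ ends, against 37.4% and 46.2% at the solo copies. Both ends of each of these solo copies shared CpGs. They supplied 40 of the 75 intermediate ends among all 4980 ends of other copies.

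**Figure D1:**
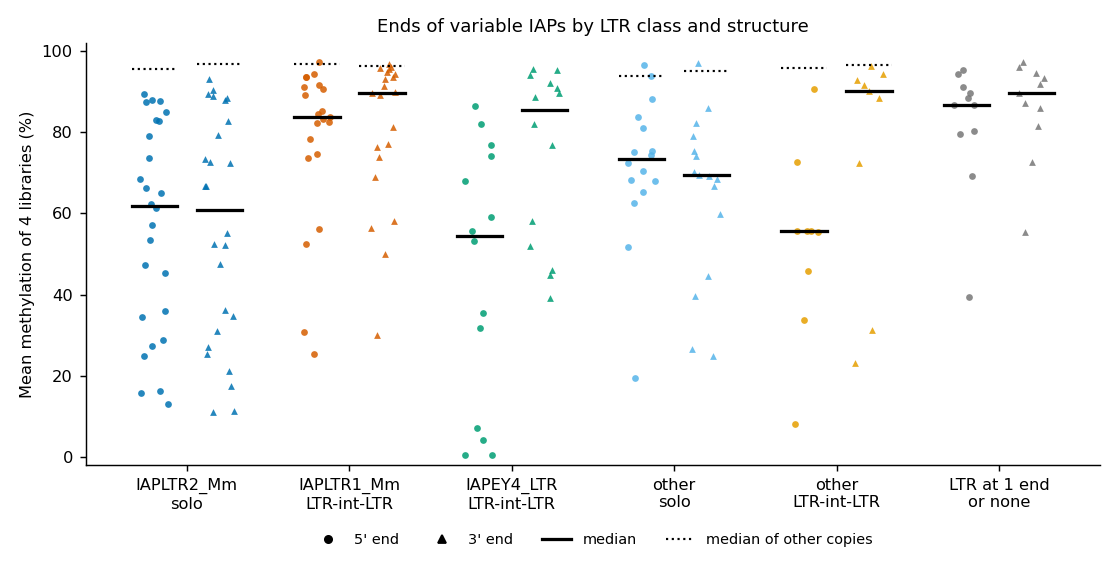
Mean methylation over 4 libraries (vertical axis, %) of each VM-IAP end, grouped by LTR class and structure, with circles for 5′ and triangles for 3′ ends, black bars at the group medians and dotted lines at the medians of other copies (not drawn for IAPEY4_LTR, with 3 other copies, or for the last group). IAPLTR2_Mm solo ends spread from 11.1% to 93.0%, and the 4 ends of IAPEY4_LTR drawn under 20% are 5′ ends, although within 350 bases the 3′ end of IAP_1700049G17Rik was also under 20% (6.34%).

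The lowest IAPLTR2_Mm solo LTRs were IAP_Creb3l2 and IAP_Zfp619. The 3′ end of IAP_Creb3l2 was methylated at 18.8% and 11.6% in females and at 6.25% and 7.66% in males, B cells first. That of IAP_Zfp619 was methylated at 14.2%, 10.6%, 8.11% and 12.3%, and the 5′ ends of both were also low, with means of 12.99% and 15.9%. Within the printed stretch of IAP_Creb3l2, the level averaged over libraries was 2.68% at the CpG at base 11 and 26.6% at that at base 139. The matching stretch of IAP_Sema6d was at 79.2% at base 11 and 68.1% at base 139, and that of IAP_Cdh19 at 76.5% and 81.5%.

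IAPEY4_LTR elements had the lowest ends of all. At the 5′ end of IAP_Mrgprb5 the level was 0% in 3 libraries and 2.34% in male T cells, and at that of IAP_Hunk it was 2.09%, 0%, 0% and 0.525%. For IAP_Hunk these values rest on 88 to 158 read counts per library, summed over CpGs, so a read over several CpGs is counted at each. If all counts were independent, 0 methylated of 135 in female T and of 88 in male B cells would allow shares of up to 2.22% and 3.41%. The true limits are wider, since the library with the fewest reads at each printed CpG of this end held 8 to 14. For the 3 libraries at 0% at IAP_Mrgprb5 the limit would be 2.65% to 4.00% on the same assumption. The lowest IAPLTR1_Mm ends were the 5′ end of IAP_Kcnh6 (mean 25.3%) and the 3′ end of IAP_Sfpq, at 30.2% over 8 CpGs and 7.83% over the 6 of them within 350 bases. In the smaller groups, the lowest ends were the 5′ ends of IAP_Pgm1 (8.20%), IAP_E030019B13Rik (19.5%) and IAP_Tle1 (39.4%).

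The range over the 4 libraries was the highest minus the lowest level. Its median was 14.8 points at IAPLTR2_Mm solo LTRs, 12.7 at IAPLTR1_Mm, 9.66 at IAPEY4_LTR, 15.0 at other solo, 15.7 at other LTR-internal-LTR and 7.67 at elements with an LTR at 1 end or none. Over all ends it was 13.9 points, against 4.43 at other copies. Of the ends of other copies, however, 98.2% were above 80%. Between 20% and 80%, the median was 16.4 points over 99 VM-IAP ends and 10.2 points over 75 ends of other copies. Libraries lay 20 points or more apart at 51 of 194 ends (26.3%) and at 27 of 4980 ends of other copies (0.542%). The Wilson intervals of the highest and the lowest library did not overlap at 84 ends (43.3%) and at 302 ends of other copies (6.06%). Both counts may be too high, since reads counted at several CpGs narrow these intervals. The list was chosen for variation between libraries, so these counts describe it and were not tested. The order of the groups depended on the measure. Among ends between 20% and 80% the median range was 22.5 points at IAPLTR1_Mm and 16.4 at IAPLTR2_Mm solo LTRs. From the second highest to the second lowest library, the median over all ends was 3.81 points at IAPLTR2_Mm solo LTRs and 2.95 at IAPLTR1_Mm.

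Among IAPLTR2_Mm solo LTRs the widest range was at the 5′ end of IAP_Gm5444, with 3.88% and 35.8% in B and T cells of females and 27.0% and 42.6% in those of males. Next was the 5′ end of IAP_Sema6d, at 79.3%, 61.1%, 78.7% and 40.6%, where both B cell libraries were above both T cell libraries. The 3′ end of IAP_Fam78b was methylated at 92.2%, 66.6%, 78.3% and 56.8%. The narrowest were the 3′ ends of IAP_Mmp16 (range 3.14 points, or 8.08 within 350 bases, mean 88.8%) and IAP_5730507C01Rik (4.75 points, mean 66.7%). The latter is an intermediate level that the libraries shared, from 63.7% to 68.4%, while the 5′ end of the same LTR ranged from 28.0% to 57.1%.

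At IAPLTR1_Mm elements the 3′ end of IAP_Gm13849 ranged most, with 53.5% and 74.8% in B and T cells of females and 100% and 67.1% in those of males. Its 8 CpGs reached 4087 bases into the element. IAP_Marveld2 ranged at its 5′ end over 38.7 points and the 3′ end of IAP_Bex6 over 38.2 points (62.3 within 350 bases), and both are described with the comparison of B and T cells. The 3′ ends of IAP_Kcnh6 (range 2.04 points) and IAP_Nrros (3.69 points) were the most even. At IAPEY4_LTR elements the widest were the 5′ ends of IAP_Vmn1r3 (58.0% to 88.0%) and IAP_Ccl28 (58.2% to 84.1%) and both ends of IAP_Gm6838 (70.3% to 90.3%), which rest on the same 4 CpGs, reaching 6556 bases from the 5′ and 6167 bases from the 3′ end. The most even were the 5′ ends of IAP_Hunk and IAP_Mrgprb5.

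The smaller classes are given by the end with the widest range. These were the 5′ ends of IAP_Vmn2r97 (IAPLTR4, 51.9 points), IAP_Hist4h4 (IAPLTR2a2_Mm, 32.3), IAP_1700030C10Rik (RLTR46A2, 29.8), IAP_Art2a-ps (IAPEY5_LTR, 29.0), IAP_abParts (an LTR at the 3′ end alone, 27.2), IAP_Naip1 (IAPEY3C_LTR, 16.3), IAP_Olfr161 (RLTR46B, 13.7) and IAP_Nelfa (RLTR46, 9.95), and the 3′ ends of IAP_Gm15800 (IAPLTR2a, 22.2) and IAP_Arhgap31 (IAPLTR1a_Mm, 19.4). By structure, the widest were IAP_Acss2 among other solo LTRs (35.3 points), IAP_Vmn2r97 among other LTR-internal-LTR elements and IAP_Tle1 among the rest (36.3 points). Of the locus with the widest range among IAPEY2_LTR elements no value is reported here.

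The loci that the study follows in detail are given by end. At the 5′ end of IAP_Rnf157 the levels were 50.8% and 18.2% in females and 18.1% and 36.5% in males, a range of 32.6 points. Of 13 reference CpGs within 350 bases of this end 1 was listed, so the value rests mainly on CpGs farther inside the element. The 3′ end had a range of 13.1 points over 8 CpGs that reach 3742 bases inward (mean 58.1%). Its 5 CpGs within 350 bases were at 54.8%, 66.7%, 87.3% and 63.0%, a range of 32.5 points. At the 5′ end of IAP_Bmf the levels were 37.2%, 52.0%, 77.5% and 54.6%, and its 3′ end stayed between 82.1% and 100%. IAP_Tfpi had a 5′ end between 45.1% and 67.6% and a 3′ end between 93.4% and 100%. IAP_Mbnl1, with the same LTR (100% identity over 335 bases), could not be measured. IAP_Slc15a2 had 68.1% to 85.8% at its 5′ and 84.1% to 96.8% at its 3′ end (97.8% to 100% within 350 bases), and IAP_Gm13849 had 68.95% to 86.9% at its 5′ end. The solo LTR IAP_2610035D17Rik had 16.5% to 44.9% at its 5′ and 14.4% to 44.4% at its 3′ end. At IAP_Eps8l1 the ends shared 7 of 8 CpGs and had means of 84.5% and 89.2%.

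The ends of one element were then compared in each library, over 80 elements whose ends shared no CpG. Ends were called different where they differed by at least 20 points in the same direction in all 4 libraries. This is a description, since a sign-flip test over 4 libraries cannot give a p below 0.125. The counts were 0 of 25 IAPLTR2_Mm solo LTRs, 3 of 18 IAPLTR1_Mm, 5 of 12 IAPEY4_LTR, 4 of 9 other solo, 2 of 8 other LTR-internal-LTR and 2 of 8 elements with an LTR at 1 end or none. In all, 16 elements met it, 7 with the higher level at the 5′ end and 9 with the lower. Among other copies, 4 of 1193 LTR-internal-LTR elements (0.335%) and 0 of 474 solo LTRs (0%) did. Of these 4, 2 were among the 3 other IAPEY4_LTR copies, both with the lower level at the 5′ end, as at the 5 listed elements of that class. Of all ends of other copies 98.2% were above 80%, which leaves little room for such a difference, so these shares are not a like comparison.

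Within 350 bases of each end, 19 of 71 elements met the same criterion, 4 of 15 IAPLTR1_Mm, 5 of 10 IAPEY4_LTR, 5 of 8 other LTR-internal-LTR and 0 of 26 IAPLTR2_Mm solo LTRs among them. For other LTR-internal-LTR copies the count was then 5 of 1209 (0.414%), the 3 IAPEY4_LTR copies among them. Of these 3, 2 had the lower and 1 the higher level at the 5′ end. Of the 16 elements, 14 were also among these 19. Across IAPLTR2_Mm solo LTRs the levels of both ends went together (Pearson's r = 0.939 and Spearman's rho = 0.943 over 25 elements, as a description of points from the same 4 libraries), and the median size of the difference was 5.28 points. Across IAPLTR1_Mm elements r was -0.0928 (18 elements, median size 14.8 points) and across IAPEY4_LTR elements 0.0692 (12 elements, median size 18.7 points). Within 350 bases r was -0.421 (15 elements, median size 22.2 points) and 0.420 (10 elements, median size 27.2 points). Across 9 other solo LTRs r was 0.478 with either choice of CpGs. Across 8 other LTR-internal-LTR elements it was 0.795, and -0.0760 within 350 bases.

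**Figure D2:**
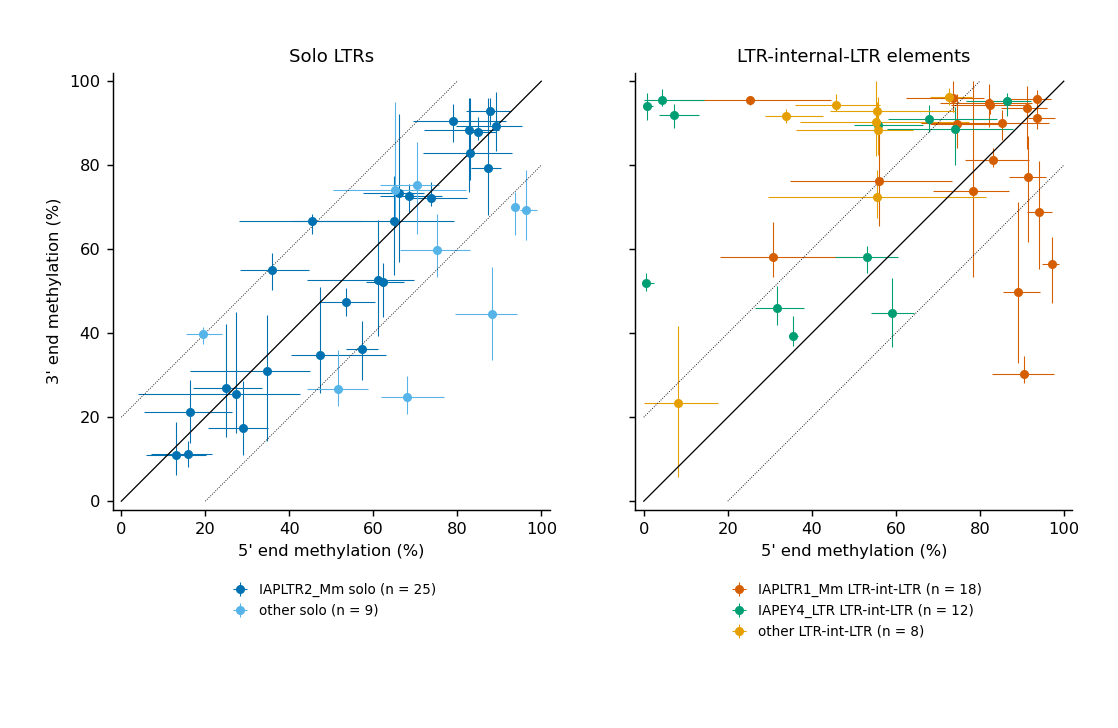
Methylation of the 5′ end (horizontal axis, %) against that of the 3′ end (vertical axis, %) of solo and LTR-internal-LTR elements whose ends share no CpG, as the mean of 4 libraries with bars from the lowest to the highest library, coloured by group. The solid line marks equal levels and the dotted lines a difference of 20 points. IAPLTR2_Mm solo LTRs follow the diagonal (r = 0.939) more closely than other solo LTRs (r = 0.478). IAPLTR1_Mm and IAPEY4_LTR elements leave it on both sides, and other LTR-internal-LTR elements all lie above it. At the upper left are 3 IAPEY4_LTR elements with 5′ ends under 10% and 3′ ends above 90%.

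The 5 IAPEY4_LTR elements whose ends differed all had the lower level at the 5′ end. IAP_Hunk had the largest difference, with the 5′ end at 0% to 2.09% and the 3′ end at 97.2%, 93.5%, 90.8% and 94.7%, a mean difference of -93.4 points. At IAP_Cntnap5b locus 1, in an intron of Cntnap5b, the 5′ end was at 1.44%, 14.4%, 0% and 1.40% and the 3′ end at 94.1%, 95.3%, 94.7% and 98.1% (-91.2 points). In male B cells, 0 methylated of 89 read counts summed over CpGs would allow up to 3.37% if independent, and the true limit is wider. None of the 11 reference CpGs within 350 bases of that 3′ end was listed, so its value comes from CpGs farther inside, up to 1374 bases from the end, and not from the LTR. At IAP_Incenp the 5′ end was at 4.85%, 7.28%, 13.2% and 3.66% and the 3′ end at 91.8%, 88.8%, 92.7% and 94.7% (-84.8 points), or 82.1% to 92.5% within 350 bases. The groups of values did not overlap in any of these, and the libraries were within 14.4 points of each other at each end. IAP_Mrgprb5 (-51.3 points) and IAP_Dydc2 (-34.0 points) were the others.

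The same class was resolved further along the LTR, in the first 100 and the last 100 bases of each LTR with at least 2 listed CpGs. The printed 5′ and 3′ stretches of IAP_Hunk are these edges. The first 100 bases of the 3′ LTR, read from inside the element, had a median of 14.02% over 5 elements, and the last 100 bases, at the border with the host genome, 89.3% over 10. In each of the 5 elements with both, the last 100 bases were higher, by 6.21 to 83.1 points (median 73.7). At IAP_Mrgprb5 the values were 15.5% and 89.2%, at IAP_Cyp4f18 6.26% and 89.4%, at IAP_Ear1 5.51% and 84.1% and at IAP_Mrs2 14.02% and 62.1%. IAP_Ccl28, at 87.0% and 93.2%, was high throughout. At IAP_Cyp4f18, IAP_Mrs2 and IAP_Ccl28 both LTRs are identical in the reference, so reads inside them fit either LTR, and how such reads were placed is not known. The 3′ border was low at 1 of the 10 elements, IAP_1700049G17Rik, with 6.34%.

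In the 5′ LTR the first 100 bases, at the border with the host genome, had a median of 14.5% over 12 elements and the last 100 bases 58.0% over 9, with values from 0% to 94.2%. In the 9 elements with both parts the last part was the higher in 6, with a median difference of 6.67 points (-5.30 to 66.8). IAP_Hunk, IAP_Mrgprb5 and IAP_Cntnap5b locus 1 were low in both parts (at most 6.20%), and IAP_9030624G23Rik locus 2, whose 5′ LTR differs from that of IAP_Hunk at 1 base, was high in both (86.1% and 89.3%). Averaged over libraries, its printed stretch was at 81.4% to 91.5% per CpG, and the same 5 CpGs of IAP_Hunk were at 0% to 4.175%. IAP_Ear1 was mixed, with 27.4% in the first and 94.2% in the last 100 bases. Solo LTRs of IAPLTR2_Mm had medians of 59.0%, 52.0% and 70.8% in the first 100 bases, the middle and the last 100 bases (25 elements each). The last part was the higher in 15 of 24, with a median difference of 2.10 points (-23.8 to 29.04), and the classes were not tested against each other. At IAPLTR1_Mm elements the medians were 81.4% and 82.0% in the first and last 100 bases of the 5′ LTR (19 and 12 elements) and 90.8% in the last 100 bases of the 3′ LTR (18 elements). In the 10 elements with both parts of the 5′ LTR the last part was the higher in 9, with a median difference of 4.43 points and the largest, 44.5 points, at IAP_Marveld2.

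**Figure D3:**
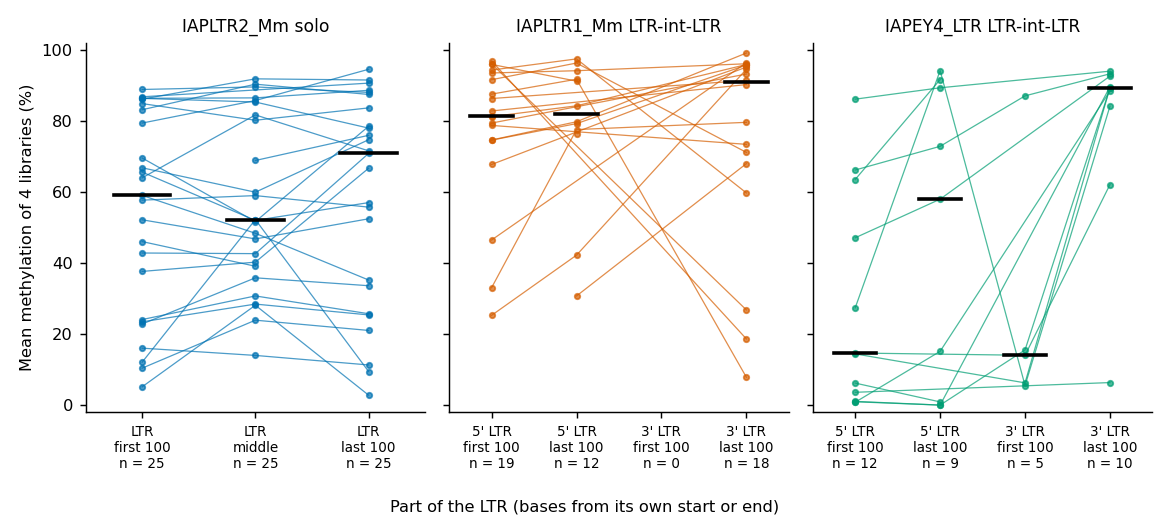
Mean methylation over 4 libraries (vertical axis, %) in parts of the LTR (horizontal axis, first and last 100 bases and the middle), with 1 line per element, for the 3 largest groups. Black bars mark medians, and n counts the elements with at least 2 listed CpGs in the part. For IAPEY4_LTR the median is 14.02% at the start of the 3′ LTR (5 elements) and 89.3% at its end (10 elements), and the elements measured differ between the parts.

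Among IAPLTR1_Mm elements, ends differed in both directions. IAP_Kcnh6 had a 5′ end of 44.7% and 38.4% in B cells of females and males and of 9.80% and 8.40% in their T cells, and a 3′ end of 94.5%, 96.0%, 96.5% and 95.2% (-70.2 points). IAP_Sfpq, an element near the gene of a splicing factor, was the reverse, with a 5′ end at 92.98%, 82.9%, 97.7% and 89.0% and a 3′ end at 34.6%, 28.6%, 28.0% and 29.6% (60.4 points). Its 3′ LTR alone was lower still. The 6 listed CpGs of the printed 3′ stretch averaged 12.8%, 4.73%, 6.40% and 7.40%, and the difference within 350 bases was 82.8 points. IAP_Aire, near the autoimmune regulator gene, had 97.1% at its 5′ and 56.4% at its 3′ end, and 96.9% and 18.6% within 350 bases. Restricting to 350 bases added IAP_Tfpi to this class, with 45.8% at its 5′ and 96.4% at its 3′ end.

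In the other groups, IAP_Olfr161, an RLTR46B element, had 28.9% to 42.6% at its 5′ and 89.9% to 93.4% at its 3′ end (-57.8 points). The 4 other solo LTRs whose ends differed all had the higher level at the 5′ end, namely IAP_Gm4262 (43.6 points), IAP_Ankrd50 (43.0), IAP_Gm1335 (24.95) and IAP_1700054K19Rik (23.7). IAP_Arhgap31 had 90.6% and 31.4% at its ends but shared 1 CpG between them, and within 350 bases it had 90.5% and 13.9%. The most alike were the solo LTRs IAP_Lhfpl2 (89.3% at both ends), IAP_Diap3 (83.1% and 82.8%) and IAP_Ect2l (73.7% and 72.3%).

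B and T cells were compared at each end with the quasi-likelihood test of edgeR on methylated and unmethylated reads, fitted over the whole table. An end was called at a Benjamini-Hochberg adjusted p under 0.05 and a mean difference of at least 20 points. Of 194 ends, 15 were called, 12 of them with more methylation in B and 3 with more in T cells, against 3.03% of all rows of the table (2.22% higher in B and 0.804% lower in B). Among ends of other copies, 98.2% of which were above 80%, 13 of 4980 (0.261%) were called. The study had removed loci that differ between B and T cells from its list, so a count among its members is not a fair sample of IAPs. The test took its dispersion from the whole table, whereas the listed loci were chosen for variation between libraries. With 1 library per group, a called difference between cell types cannot be told apart from a difference between pools of mice. The 15 ends belonged to 15 elements, 11 were 5′ and 4 were 3′ ends, and the opposite end was called at 0 of them. At 5 of the 15 elements the opposite end still differed by at least 10 points in the same direction. These were IAP_Sema6d (16.5 points), IAP_2610035D17Rik (15.5), IAP_Art2a-ps (15.35), IAP_Hist4h4 (-15.9) and IAP_Gm5444 (-15.3), some of which share CpGs between their ends. At IAP_Pifo it differed in the opposite direction (-16.7 points). By group, 4 of 52 IAPLTR2_Mm solo, 2 of 42 IAPLTR1_Mm, 1 of 28 IAPEY4_LTR, 4 of 32 other solo, 2 of 18 other LTR-internal-LTR and 2 of 22 ends of the last group were called.

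**Figure D4:**
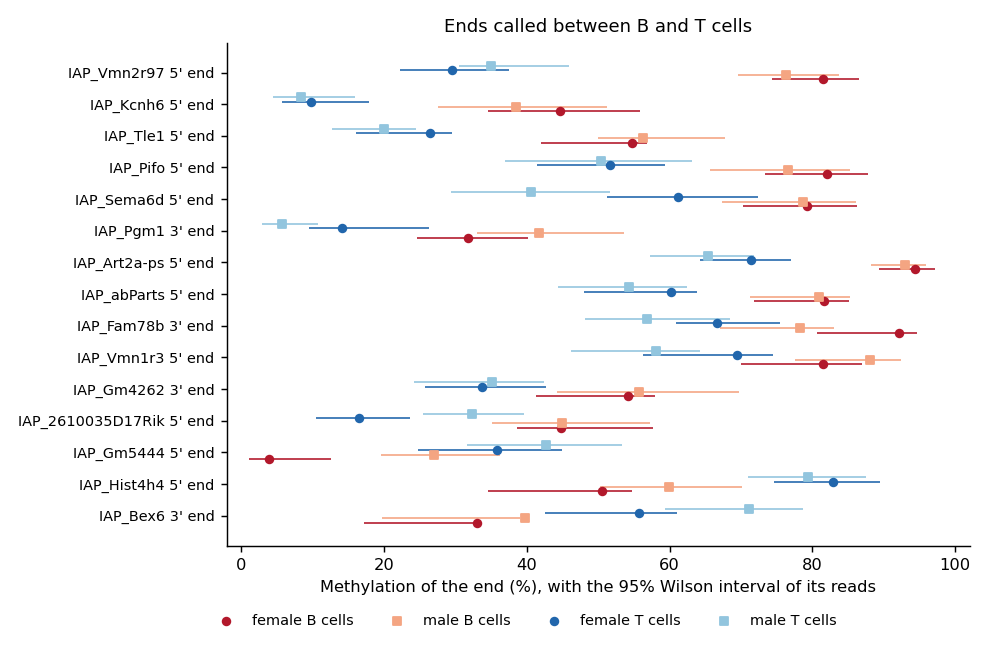
Methylation (horizontal axis, %) of the 15 ends called between B and T cells in the 4 libraries (red for B, blue for T cells, circles for females, squares for males). Lines are 95% Wilson intervals of the share of methylated reads, which can lie off the unweighted mean over CpGs. They are too narrow where a read covers several CpGs. At the 5′ end of IAP_Vmn2r97 the B cell libraries stand at 81.4% and 76.3% and the T cell libraries at 29.6% and 35.0%.

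The largest difference was at the 5′ end of IAP_Vmn2r97, with B cells at 81.4% (female) and 76.3% (male) and T cells at 29.6% and 35.0% (46.6 points, edgeR adjusted p = 4.93e-16). At all 6 CpGs in the printed stretch both B libraries were above both T libraries, from 95.3% and 85.8% against 57.9% and 65.3% at base 48 to 62.5% and 64.3% against 10.0% and 7.20% at base 205. Its 3′ end, at 67.5% to 78.8%, differed by 6.66 points. The 5′ end of IAP_Kcnh6 followed with 32.4 points (edgeR adjusted p = 2.47e-07), with B at 44.7% and 38.4% and T at 9.80% and 8.40%, while its 3′ end differed by -0.144 points. IAP_Tle1, an IAPLTR4 element, was methylated at its 5′ end at 54.8% and 56.3% in B and 26.5% and 19.98% in T cells (32.3 points, edgeR adjusted p = 1.73e-09). Here, as at every other called end, both B libraries lay on the same side of both T libraries.

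The solo LTR of IAP_Pifo, in an intron, differed by 28.3 points at its 5′ end (82.0% and 76.6% in B, 51.6% and 50.4% in T cells, edgeR adjusted p = 8.21e-05), and by -16.7 points at its 3′ end, which was not called. IAP_Sema6d, printed above, differed at its 5′ end by 28.1 points (edgeR adjusted p = 0.000962) and was not called without male T cells (17.9 points) or with the 4 outermost CpGs (24.5 points, edgeR adjusted p = 0.187). The 3′ end of IAP_Pgm1, an LTR-internal-LTR element of IAPLTR2_Mm, was methylated at 31.7% and 41.7% in B and 14.1% and 5.71% in T cells (26.8 points, edgeR adjusted p = 7.47e-07), and was not called without male T cells (22.6 points, edgeR adjusted p = 0.0690).

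Higher levels in T cells were called at 3 ends. The 3′ end of IAP_Bex6 had B cells at 33.0% (female) and 39.7% (male) and T cells at 55.7% and 71.2% (-27.1 points, edgeR adjusted p = 2.54e-06). In the last 100 bases of its 3′ LTR the libraries stood at 0%, 34.6%, 10.2% and 62.3%, over 5 CpGs with at least 56 summed read counts, while its 5′ end was at 85.6% to 94.4%. Without male T cells the difference was -19.4 points and the end was not called. IAP_Hist4h4, which overlaps an exon of the histone gene Hist4h4, had a 5′ end at 50.5% and 59.9% in B and 82.8% and 79.4% in T cells (-25.9 points, edgeR adjusted p = 2.31e-05). IAP_Gm5444 differed at its 5′ end by -23.8 points (edgeR adjusted p = 0.00598), by -12.2 points without female B cells, by -20.4 points without male T cells and by -17.6 points with 4 CpGs, and was called in none of these fits.

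The other 6 called ends differed by 20.4 to 25.3 points, with B higher. Of these the 5′ end of IAP_Art2a-ps was called in each alternative fit (25.3 points, edgeR adjusted p = 1.38e-10), as were IAP_Vmn2r97 and IAP_Kcnh6. IAP_abParts differed at its 5′ end by 4.25 points with the 4 outermost CpGs in place of 8. The 5′ end of IAP_Vmn1r3 (21.01 points) was the single call among IAPEY4_LTR ends. It was not called without male B (17.7 points) or without male T cells (15.3 points), and the end of IAP_Fam78b was not called without female B (16.6 points) or male T cells (18.6 points). The end of IAP_Gm4262 was called neither in the fits that left out a library nor with 4 CpGs (18.8 points). That of IAP_2610035D17Rik was not called without female B (20.5 points) or female T cells (12.5 points) or with 4 CpGs (15.7 points). By limma 3 ends were called in all, the 5′ ends of IAP_Vmn2r97, IAP_Kcnh6 and IAP_Art2a-ps. Without male T cells 11 ends were called.

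Between females and males 0 of 194 ends were called by edgeR, against 0.00255% of all rows, and 0 by limma, which called 0 rows in all. At an unadjusted p under 0.05 stood 36 ends by edgeR and 22 by limma, where 110265 and 111191 of the 2273876 rows did. The largest differences were at the solo LTR of IAP_Acss2, in an intron of Acss2, the gene of an acetyl-CoA synthetase. Its 3′ end was methylated at 76.7% and 82.9% in female B and T cells and 48.6% and 58.8% in male B and T cells (26.1 points, edgeR adjusted p = 0.328), and its 5′ end, with 4 CpGs in common, differed by 19.5 points. The 5′ end of IAP_Bmf differed by -21.4 points (edgeR adjusted p = 0.775).

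A B minus T difference that itself differed between the sexes was called at 1 of 194 ends, against 0.000396% of all rows, and at 0 by limma. This fit had terms for cell type and the interaction but none for sex, since each combination is 1 library, and its p has no replicate behind it. At the 5′ end of IAP_Marveld2 the levels were 68.9% and 34.7% in B and T cells of females and 47.2% and 73.4% in those of males. The mean of female B and male T cells was 30.2 points above that of female T and male B cells (edgeR adjusted p = 0.0365). Its 3′ end went the opposite way, at 65.6%, 83.1%, 87.4% and 69.1%, over CpGs that reach 4447 bases into the element. In the last 100 bases of its 3′ LTR the levels were 65.2%, 89.2%, 89.6% and 74.3%.

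**Figure D5:**
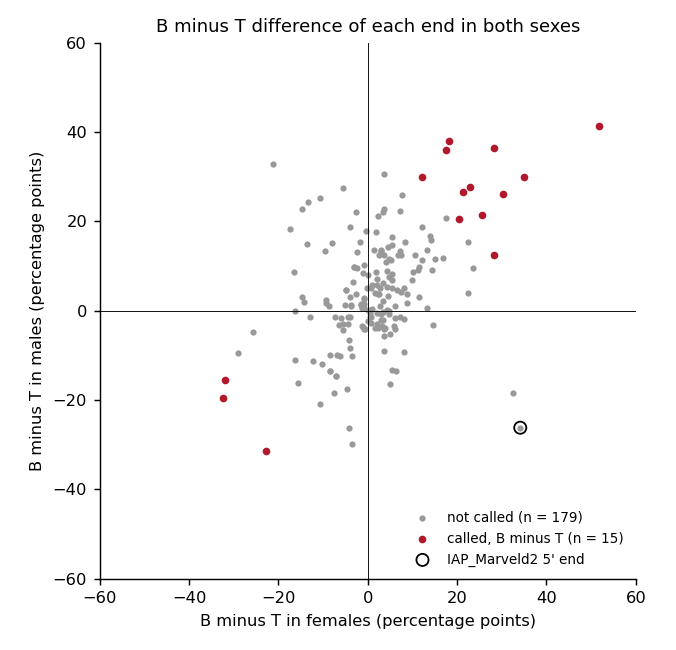
B minus T difference in females (horizontal axis, percentage points) against that in males (vertical axis, percentage points) for 194 ends, with the 15 called ends in red and the 5′ end of IAP_Marveld2 circled. The called ends lie in the upper right and lower left corners, and IAP_Marveld2 lies at 34.1 points in females and -26.2 in males.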

How the data were processed

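5mC was measured by WGoxBS in B and T cells, with 1 deposited file per group. Per the submitters' processing notes, Trim Galore, FastQC and Bismark 0.13.1 were used on mm10 (GRCm38). How reads that fit several copies were placed is not given in the sources used here. The authors deposited, for each CpG with at least 5 reads, its methylated share as a fraction, with the read count behind it. Fractions had been rounded up to 3 decimals, and the methylated reads were the product of level and reads, rounded down.

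The levels of the 8 outermost CpGs of an end listed in all 4 libraries were averaged without weights. Other copies were found with blastn 2.17.0 (identity of 90% or more over 90% of a listed LTR), without listed loci. Of these copies 1347 were LTR-internal-LTR and 1180 solo.

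Methylated and unmethylated reads, summed over the CpGs of a row, were fitted with edgeR 4.0.16 in R 4.3.3. This fit covered 2273876 rows of at least 20 such counts per library, with terms for library, methylation, cell type and sex. The common dispersion was 0.00805, and the spread was shared by all rows. The interaction was fitted with cell type and without a term for sex. Each of these fits has 1 residual degree of freedom, and p-values measure differences between these 4 libraries. The script was tested on simulated data. limma 3.58.1 was fitted to the log2 ratio of methylated to unmethylated reads, each plus 0.5. Elements were classed by the study's list and annotated with GENCODE mouse release 21. The loci were named by a rule on range, level, difference between ends and calls, together with loci that the study follows. 1 locus of the rule is not reported here. Members, lists and rules were chosen with earlier results of these data known. Per-sample columns left unused numbered 0.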

Additional observations from a re-analysis of the deposited data

Results flagged for a closer look

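The 5′ end of IAP_Marveld2 drew attention because a test called its B minus T difference unlike in females and males. The mean of female B and male T cells exceeded that of female T and male B cells by 30.2 points (edgeR adjusted p = 0.0365), and B minus T was 34.1 points (females) and -26.2 points (males). By limma the same end had an adjusted p of 1.00 and was not called. Each of the 4 values is 1 library.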

How the results depend on the processing

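Of 133 alternative values of the summaries, 121 stayed within the limit set for them (the median reach of the group's Wilson intervals to either side for a median, 1.5 times for a count) and 12 did not. The median level of IAPEY4_LTR ends was 75.3% with 4 CpGs per end and 53.01% within 350 bases, and that of other LTR-internal-LTR ends was 56.1% with CpGs of at least 10 reads and 55.8% within 350 bases. From the second highest to the second lowest library, the median range was 3.81 points at IAPLTR2_Mm solo, 2.95 at IAPLTR1_Mm, 5.90 at other solo and 2.63 at other LTR-internal-LTR ends. At a minimum difference of 10 points, 29 elements had ends that differed. With a library left out, 16 to 20 elements did, a number that cannot fall below 16 because the criterion then covers fewer libraries. The B and T cell calls numbered 39 with no minimum difference, 3 with limma and 11 to 19 with a library left out, where 8 (without male T cells) to 13 of the 15 remained. With 4 CpGs per end 15 ends were called, 10 of them among the 15. The call between sexes in B minus T fell to 0 with limma. The cause of these changes was not tested.

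0 of the called B minus T differences changed sign under any alternative fit. Depth limits what can be seen: the widest Wilson interval of an end had a median width of 17.3 points and was at most 32.7 points wide. These widths are too small where a read covers several CpGs. No analysis paired by mouse was possible because each group had 1 file and no number is shared between the groups. The fit of B against T cells did hold a term for sex.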
